A study of Mus musculus with 19 samples.

Results

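The enzymes and carriers that take glucose into the heart and break it down to pyruvate were described here across wild-type ventricles (WT) and ventricles in which Mpc1 had been knocked out (KO). The product of Mpc1 is part of the mitochondrial pyruvate carrier, through which the end product of glycolysis enters the mitochondrial matrix. The set was chosen by gene symbol and holds 32 symbols, which matched 33 gene IDs among the 55536 genes counted, because Aldoa names 2 IDs. The knockout is described by the submitters as inducible and heart-specific, in adult mice. The groups were WT-8 (5 libraries) and KO-8 (4) at 8 weeks after induction, and WT-16 and KO-16 (5 each) at 16 weeks. The labels used here name no Cre driver, inducing agent, age or strain, so what the WT mice share with the KO mice besides time could not be stated. Whether the libraries of a group are separate animals is not given either, and the p-values therefore rest on the spread between libraries alone, which may in part be technical.

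Glucose crosses the plasma membrane of heart muscle cells mainly through GLUT1 (Slc2a1) and the insulin-responsive GLUT4 (Slc2a4). Hexokinase traps it as glucose 6-phosphate, and phosphofructokinase commits it to glycolysis under the control of fructose 2,6-bisphosphate, which the Pfkfb enzymes make and degrade. Most steps have several isoforms, and striated muscle favours its own: hexokinase 2, Pfkm, Aldoa, Pgam2 and Eno3. The carrier that Mpc1 helps to form takes up pyruvate just after the last step.

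Library totals were 16.5 to 27.52 M (mega) counted read pairs at 8 weeks and 8.63 to 26.9 M at 16 weeks. Levels are given as CPM, counts per 1 M counts of a library whose total was scaled by its TMM factor (an edgeR normalization), and replicates are listed in the order 1 to 5 (1 to 4 in KO-8). Counts on a gene that lies on 18S ribosomal RNA made up to 39.1% of a WT-16 library and up to 30.0% of a KO-16 library. The lowest shares were 6.88% and 1.71%, and at 8 weeks all were 0.0666% or less. The share was over 20% in 4 of the 5 WT-16 libraries and in 2 of the 5 KO-16 libraries. By sex-linked transcripts 2 libraries were male (WT-16 replicate 5 and KO-16 replicate 4). Mpc1 was 85.8, 76.5, 75.1, 78.4 and 66.5 CPM in WT-8 and 11.3, 12.2, 8.53 and 11.9 in KO-8, and 59.4, 60.3, 73.4, 64.6 and 80.9 in WT-16 and 25.98, 9.31, 9.07, 14.6 and 15.3 in KO-16. The highest KO library was lower than the lowest WT library at each time, with log2 fold changes of -2.80 (SE 0.10, edgeR adjusted p = 3.23e-10) and -2.20 (SE 0.25, edgeR adjusted p = 0.00136). Replicate 1 was the highest of KO-16.

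At 8 weeks, 30 of the 33 gene IDs had enough counts to be tested, and 6 were higher and 2 lower in KO at an adjusted p under 0.05, or 26.7% of those tested, against 8.38% of all 15224 genes tested. Pgam2, Eno3 and Gapdh, which act below the splitting of the sugar, had the largest rises, and Pkm, Slc2a4 and Slc2a12 rose by less. Slc2a1 and Bpgm fell. In 6 members every KO library was above every WT library and in 1 below, beside 4.3% and 6.71% of all genes tested. At 16 weeks, 26 IDs were tested, 5 were higher (Gapdh, Pfkp, Pgam2, Tigar and Hk1) and 0 lower, 19.2% against 2.82% of all 12325 genes tested (1.87% higher and 0.949% lower). The 16-week calls were less stable. All 5 were kept without replicate 1 or without replicate 5 of KO-16, and all 5 were lost when any other of the 10 libraries was left out (adjusted p = 0.0519 to 0.121). They were also lost with the 18S share as a covariate (0.101 to 0.144) and without the 2 male libraries (0.149 to 0.206). Hk1 alone was lost with RLE scaling (0.0531), with no filter (0.0624) and with the earlier of the 2 files per sample (0.0529).

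Each time point was fitted on its own libraries, because the common coefficient of variation was 0.0944 at 8 weeks and 0.228 at 16 weeks. When all 19 libraries shared 1 estimate of the spread, none of the members passed at 8 weeks (0 of 30, against 0.205% of all genes). At 16 weeks 15 were higher (50.0%, against 11% of 16101 genes) and 2 lower (6.67%, against 8.29%). In either direction the 16-week shares were 56.7% and 19.3%. An earlier fit of these data to all 19 libraries gave more false calls at 16 weeks in simulation. The 16-week calls of the shared fit are therefore less certain than their adjusted p-values state. The median log2 fold change of the members tested was 0.15 at 8 weeks and 0.57 at 16 weeks, beside -0.03 and 0.02 over all genes tested. Of the members tested, 19 of 30 had a positive fold change at 8 weeks and 21 of 26 at 16 weeks. In a bulk sample, fewer cells of a type and less RNA per cell cannot be told apart, for any of these genes.

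Markers of other heart cells moved with genotype at 8 weeks too, beside the calls on the members. The summed level of 6 endothelial markers was 694 to 821 CPM in WT-8 and 832 to 933 in KO-8, and that of 6 fibroblast markers 451 to 496 and 498 to 817, both without overlap. Called higher were 3 of 6 endothelial markers (Pecam1, Cdh5 and Fabp4), 3 of 6 smooth muscle and pericyte markers (Myh11, Tagln and Cspg4) and 2 of 6 fibroblast markers (Col1a1 and Lum), beside 3.57% of all genes. Of 6 cardiomyocyte markers 2 were called lower, Ryr2 (-0.34 (SE 0.07, edgeR adjusted p = 0.00869)) and Pln (-0.28 (SE 0.06, edgeR adjusted p = 0.0166)), beside 4.81% of all genes, while their sum overlapped (38459 to 41725 in WT-8 and 32731 to 39756 in KO-8). No macrophage or skeletal muscle marker was called, and those sums overlapped. Only 2 of 6 skeletal muscle markers had enough counts to be tested. The part of cell makeup in the 8-week calls was not tested.

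**Figure D1:**
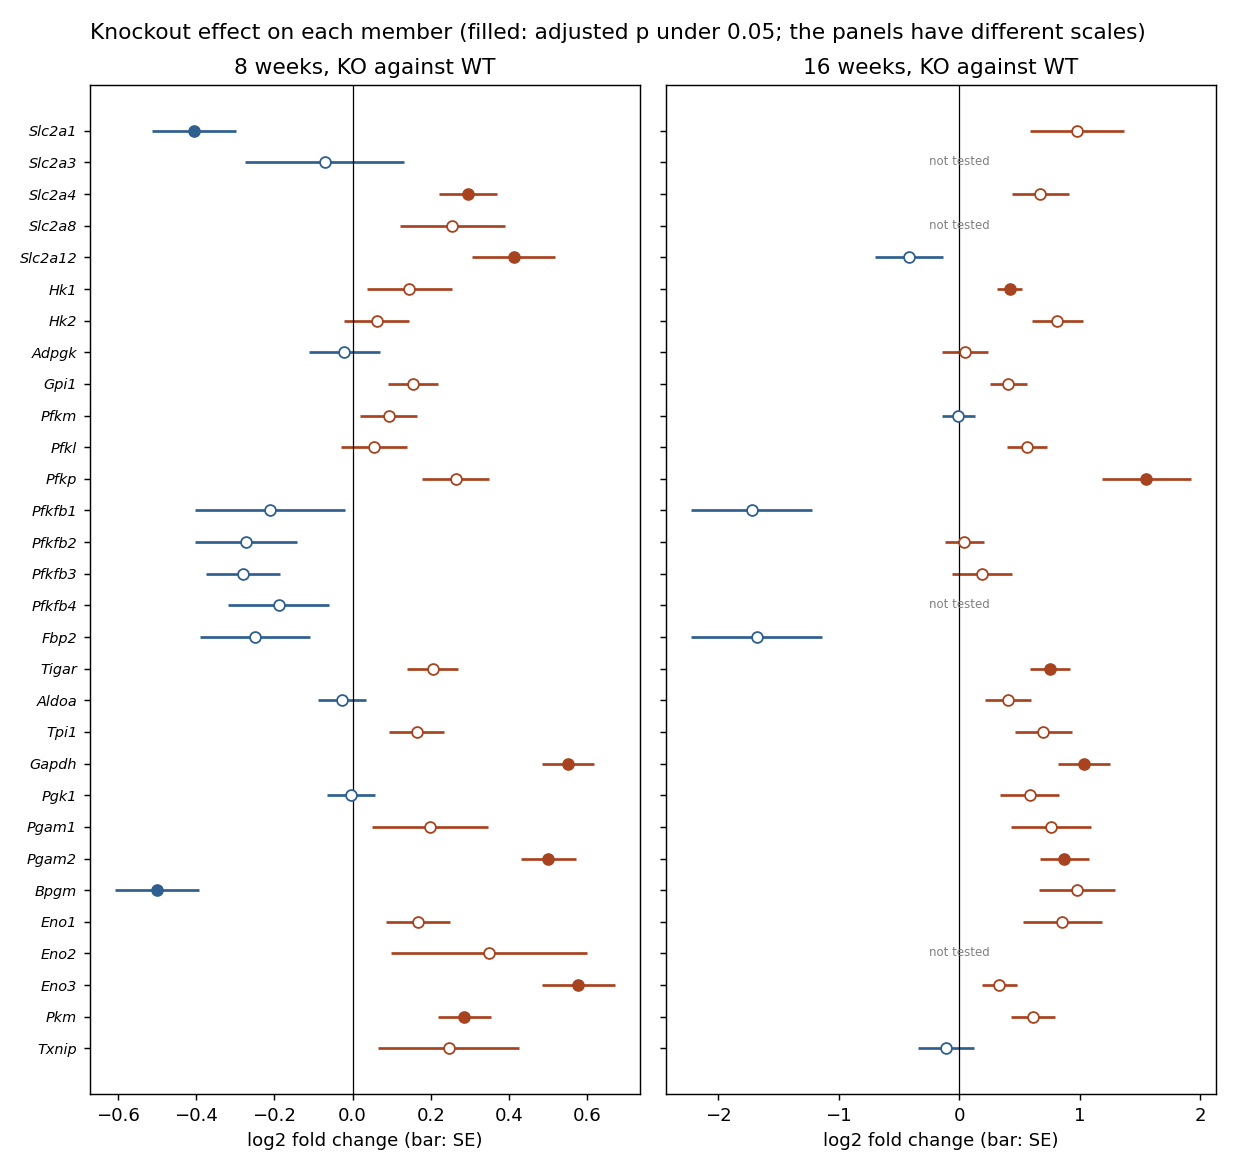
The log2 fold change of KO against WT (horizontal axis, bars: SE) is drawn for each tested member at 8 weeks (left) and 16 weeks (right), on different scales, with filled points for an adjusted p under 0.05. Gapdh and Pgam2 were the only members filled in both panels, and the 16-week points spread from -1.72 (Pfkfb1) to 1.55 (Pfkp).

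Sequence upstream of the start sites is shown for the genes with the largest rises at 8 weeks (Gapdh, Pgam2 and Eno3), the largest rise at 16 weeks (Pfkp) and the transporter that fell at 8 weeks (Slc2a1). Each is the 250 bases before the RefSeq start on GRCm38.p6, 5′ to 3′ on the strand of the gene, and capitals mark the matches to the 4 motifs searched.
Gapdh (chr6:125165774-125166023, minus strand): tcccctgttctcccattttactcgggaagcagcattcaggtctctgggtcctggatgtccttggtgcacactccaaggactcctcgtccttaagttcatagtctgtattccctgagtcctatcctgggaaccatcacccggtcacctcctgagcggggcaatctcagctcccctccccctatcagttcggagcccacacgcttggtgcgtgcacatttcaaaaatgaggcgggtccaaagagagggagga
Pgam2 (chr11:5803797-5804046, minus strand): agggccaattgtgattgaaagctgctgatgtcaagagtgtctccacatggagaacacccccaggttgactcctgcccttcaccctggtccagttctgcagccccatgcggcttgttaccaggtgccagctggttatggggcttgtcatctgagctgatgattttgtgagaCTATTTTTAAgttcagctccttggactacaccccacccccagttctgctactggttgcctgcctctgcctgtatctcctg
Eno3 (chr11:70656926-70657175, plus strand): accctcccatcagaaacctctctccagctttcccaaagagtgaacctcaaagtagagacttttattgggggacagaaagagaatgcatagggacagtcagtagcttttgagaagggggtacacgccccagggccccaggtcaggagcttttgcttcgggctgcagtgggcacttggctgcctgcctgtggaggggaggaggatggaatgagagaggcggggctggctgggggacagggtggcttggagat
Pfkp (chr13:6648772-6649021, minus strand): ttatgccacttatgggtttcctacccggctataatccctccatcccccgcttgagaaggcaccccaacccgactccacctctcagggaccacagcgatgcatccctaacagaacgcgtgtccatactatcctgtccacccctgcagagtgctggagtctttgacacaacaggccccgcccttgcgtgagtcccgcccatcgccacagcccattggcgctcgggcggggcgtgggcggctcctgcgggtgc
Slc2a1 (chr4:119108495-119108744, plus strand): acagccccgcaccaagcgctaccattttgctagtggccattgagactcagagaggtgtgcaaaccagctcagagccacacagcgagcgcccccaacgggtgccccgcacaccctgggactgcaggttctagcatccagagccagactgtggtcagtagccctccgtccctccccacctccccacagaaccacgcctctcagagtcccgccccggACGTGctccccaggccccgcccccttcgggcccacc

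The motifs, searched on both strands, were CACGTG, the E-box bound by Myc, USF and carbohydrate response element binding factors, ACGTG, the core of the hypoxia response element, TGACCTT, the site of estrogen-related receptors, and the MEF2 consensus. CACGTG contains ACGTG on both strands, so each match to the first is also a match to the second. Gapdh, Eno3 and Pfkp held none of the 4 in these windows. Pgam2 held the MEF2 consensus at positions -80 to -71, counted from the start, and Slc2a1 held ACGTG at -36 to -32. Of the 30 members found in the promoter table, 4 held CACGTG (Fbp2, Pfkfb2, Pfkfb3 and Pfkm), 11 ACGTG, 2 TGACCTT (Eno1 and Pfkfb1) and 2 MEF2 (Pgam2 and Pfkfb1) in at least 1 of their start sites. Over all 32851 promoter windows the shares were 6.02%, 16.6%, 4.08% and 2.92%, counted per window, and the members had 46 windows, of which 4, 15, 2 and 2 held a match. A match is a string of letters and not a measured site.

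Among the transporters, GLUT4 was by far the most abundant transcript. Per kilobase of exon, Slc2a4 stood at 49.6 CPM in WT-8, Slc2a1 at 1.68, Slc2a8 (GLUT8, an intracellular carrier) at 1.503, Slc2a12 (GLUT12) at 1.17 and Slc2a3 (the neuronal GLUT3) at 0.199. Slc2a1 overlapped Slc2a8 in this order, as did Slc2a8 and Slc2a12. At 8 weeks Slc2a4 was 201, 176, 164, 173 and 148 CPM in WT and 216, 208, 205 and 217 in KO. The 4 KO libraries lay above all 5 WT libraries and were close together, a log2 fold change of 0.30 (SE 0.07, edgeR adjusted p = 0.0226). Slc2a12 was 5.32, 4.74, 5.11, 4.33 and 5.36 CPM in WT and 7.62, 7.23, 6.06 and 5.700 in KO, again without overlap (0.41 (SE 0.11, edgeR adjusted p = 0.0276)).

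Slc2a1 went the other way at 8 weeks. It was 6.36, 6.19, 4.93, 6.73 and 5.31 CPM in WT and 4.54, 4.38, 4.096 and 4.79 in KO, so that every KO library was below every WT library (-0.40 (SE 0.11, edgeR adjusted p = 0.0312)). Of these 3 calls, that of Slc2a4 was lost without replicate 3 of WT-8 (highest adjusted p = 0.0573 among the libraries left out in turn) or replicate 1 of KO-8. That of Slc2a12 was kept in 5 of 9 such fits (highest 0.0847) and that of Slc2a1 in 3 of 9 (highest 0.0892), without replicate 3 or 5 of WT-8 or replicate 4 of KO-8. As a share of the summed level per kilobase of Slc2a1 and Slc2a4, Slc2a1 was 3.29% ± 0.329 (SD, n = 5) in WT-8, against 2.043% ± 0.0814 (n = 4) in KO-8, with the KO libraries at 1.94% to 2.14% and the WT libraries at 2.903% to 3.73%. The exact two-sided permutation p of 0.0159 is the smallest that 5 against 4 libraries can give, and over the 14 shares tested its adjusted value was 0.167.

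At 16 weeks no transporter passed the test. Slc2a4 was 76.9, 67.2, 85.9, 67.3 and 62.97 CPM in WT and 101, 191, 121, 103 and 56.98 in KO (0.67 (SE 0.24, edgeR adjusted p = 0.111)). Its KO replicate 5 was the lowest of the 10 libraries and the other 4 KO libraries lay above all WT libraries. Slc2a1 was 3.65, 6.46, 5.23, 4.04 and 2.66 CPM in WT and 5.696, 13.5, 11.9, 10.2 and 2.07 in KO (0.98 (SE 0.39, edgeR adjusted p = 0.142)), on 12 to 114 counts per WT library and 13 to 471 per KO library. Here KO replicates 2, 3 and 4 were above all WT libraries and replicate 5 below them. Slc2a12 was 5.600 to 12.4 CPM in WT and 3.93 to 10.2 in KO (-0.42 (SE 0.28, edgeR adjusted p = 0.361)). The Slc2a1 share was 5.71% ± 1.82 in WT-16 and 6.63% ± 2.35 in KO-16 (n = 5 each, exact permutation p = 0.5, adjusted p = 0.636). Slc2a8 at 8 weeks had 0.26 (SE 0.13, edgeR adjusted p = 0.273) and Slc2a3 -0.07 (SE 0.20, edgeR adjusted p = 0.874), and at 16 weeks neither had enough counts to be tested (2 to 121 and 2 to 27 per library).

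**Figure D2:**
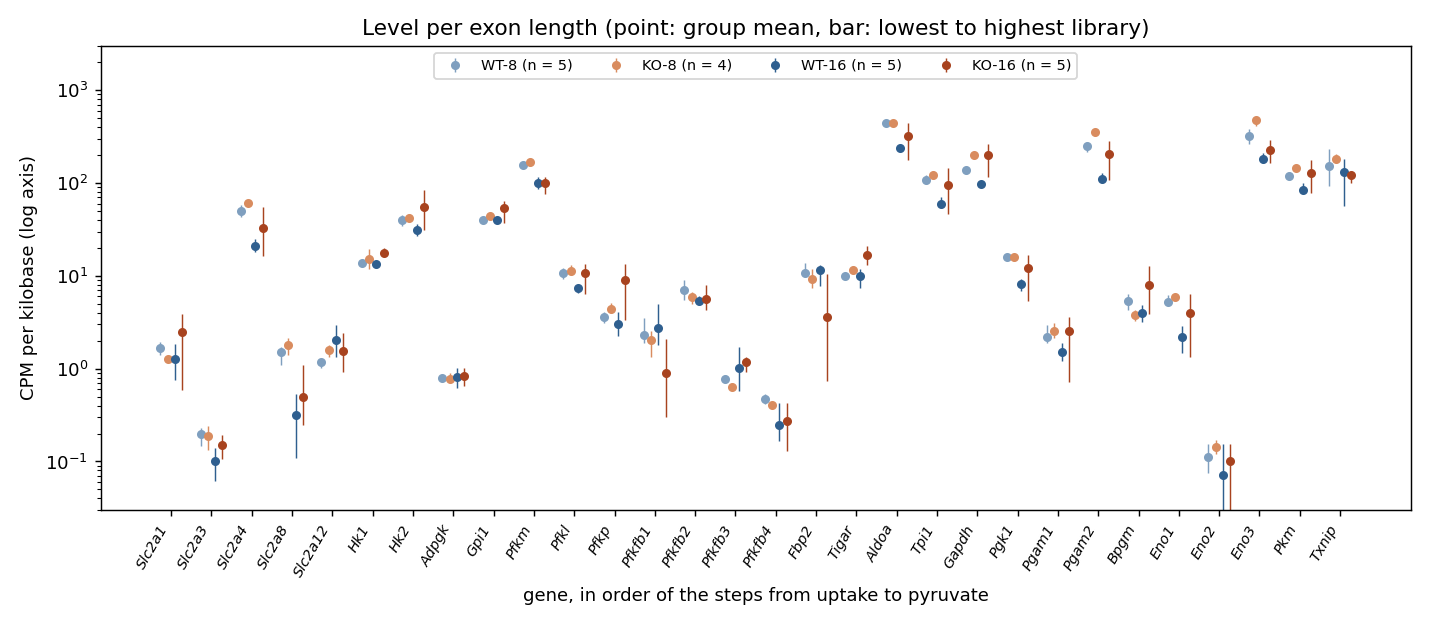
Group means of CPM per kilobase of exon (log axis) are drawn with bars from the lowest to the highest library for the members in pathway order, leaving out Hkdc1, Aldoc and the second Aldoa ID, which were near 0. Aldoa, Eno3 and Pgam2 headed the list in WT-8 at 449, 320 and 251, and the KO-16 libraries of Fbp2 ran from 0.741 to 10.4. The order depends on the exon length used, 840 bases for Pgam2 and 4133 for Gapdh. Their mean CPM in WT-8, not divided by length, were 211 and 567.

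The glucose-phosphorylating step rests on hexokinase 2, the insulin-responsive form of muscle, and the more widely expressed hexokinase 1. Both bind the outer mitochondrial membrane. Hk2 made up 74.2% ± 2.16 (SD, n = 5) of the summed level per kilobase of Hk1 and Hk2 in WT-8, against 73.4% ± 3.15 (n = 4) in KO-8, and 70.2% ± 1.80 in WT-16 and 74.3% ± 6.53 in KO-16 (n = 5 each). Neither contrast passed the exact permutation test (p = 0.651 and 0.214, adjusted 0.759 and 0.395). At 8 weeks the fold change was 0.15 (SE 0.11, edgeR adjusted p = 0.459) for Hk1 and 0.06 (SE 0.08, edgeR adjusted p = 0.712) for Hk2.

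Hk1 rose at 16 weeks. It was 121, 120.2, 115, 109.8 and 103 CPM in WT and 138, 151, 156, 170.5 and 145 in KO, with every KO library above every WT library (0.42 (SE 0.10, edgeR adjusted p = 0.0444)). Of the tested members 3 separated in this way (Hk1, Tigar and Gapdh), beside 2.11% of all genes tested, and 0 in the other direction, beside 2.52% (4.63% either way). The 5 KO libraries of Hk1 spanned a narrower range, relative to their mean, than those of the other members called at this time. Hk2 was 218, 196, 186, 159 and 182 CPM in WT and 258, 502, 375, 332 and 188 in KO. Its KO replicates 1 to 4 lay above all WT libraries and replicate 5 fell within them, and the fold change of 0.81 (SE 0.21, edgeR adjusted p = 0.0546) missed the threshold. Adpgk, an ADP-dependent glucokinase, was 7.64 ± 0.468 CPM (SD, n = 5) in WT-8, with KO-8 at 7.51 ± 0.868 (n = 4) (-0.02 (SE 0.09, edgeR adjusted p = 0.918)). Its 16-week means were 7.76 ± 1.69 in WT and 7.99 ± 1.52 in KO (n = 5 each, 0.05 (SE 0.19, edgeR adjusted p = 0.887)). Hkdc1, a hexokinase-like gene, had 4 counts in all of WT-8, 4 in KO-8, 1 in KO-16 and 0 in WT-16, where 3 counts over the group would be 0.0709 CPM.

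Gpi1, which isomerises glucose 6-phosphate to fructose 6-phosphate, was 246 to 274 CPM in WT-8 and 263 to 317 in KO-8 (0.15 (SE 0.06, edgeR adjusted p = 0.157)). Its 16-week values were 272, 264, 245, 247 and 267 in WT and 277, 398, 409.9, 396 and 238 in KO (0.41 (SE 0.15, edgeR adjusted p = 0.125)). Replicate 5 of KO-16 was again the lowest of the 10 libraries.

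Phosphofructokinase was dominated by its muscle subunit. Pfkm made up 91.6% ± 0.261 of the summed level per kilobase in WT-8, Pfkl (the liver subunit) 6.29% ± 0.409 and Pfkp (the platelet subunit) 2.12% ± 0.176 (SD, n = 5). Pfkm itself was 574, 523, 502, 539 and 487 CPM in WT-8 and 626, 584, 521 and 507 in KO-8 (0.09 (SE 0.07, edgeR adjusted p = 0.4904)). The 16-week libraries gave 353, 287, 389, 329 and 318 in WT and 391, 384, 303, 339 and 251 in KO, and the group means were 335 ± 38.4 and 334 ± 58.3 (-0.01 (SE 0.14, edgeR adjusted p = 0.983)). The 16-week libraries of the 2 genotypes overlapped over most of their range.

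Pfkp had the largest rise of any member at 16 weeks. It was 33.4, 30.2, 47.9, 37.9 and 54.5 CPM in WT and 48.8, 178, 152, 174 and 45.2 in KO (1.55 (SE 0.37, edgeR adjusted p = 0.0414)). KO replicates 2, 3 and 4 lay far above the highest WT library, while replicates 1 and 5 lay within the WT range. Its share of the 3 subunits was 2.75% ± 0.635 in WT-16 and 7.28% ± 3.61 in KO-16 (n = 5 each), with the KO libraries at 2.77% to 10.3%. The exact two-sided permutation p was 0.0238, and 0.167 after adjustment over 14 shares. The difference of 4.53 percentage points was 12.07 with raw counts not divided by length, at the same p. At 8 weeks Pfkp was 41.3 to 54.8 CPM in WT and 53.1 to 67.6 in KO, with overlap (0.26 (SE 0.09, edgeR adjusted p = 0.0736)), and its share was 2.12% against 2.42% ± 0.445 (exact permutation p = 0.254).

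Pfkl was 43.3, 49.8, 53.1, 45.9 and 52.1 CPM in WT-16, against 70.1, 90.5, 78.5, 78.4 and 42.97 in KO-16. KO replicates 1 to 4 were above all WT libraries and replicate 5 below them, and the fold change of 0.56 (SE 0.16, edgeR adjusted p = 0.0719) missed the threshold. At 8 weeks its fold change was 0.06 (SE 0.08, edgeR adjusted p = 0.748).

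The regulators of this step gave no call in either time fit except for Tigar. Tigar, a phosphatase that lowers fructose 2,6-bisphosphate, was 27.3, 35.6, 37.4, 37.5 and 43.01 CPM in WT-16, against 48.1, 76.5, 52.9, 76.2 and 51.1 in KO-16. All KO libraries were above all WT libraries, by 0.75 (SE 0.16, edgeR adjusted p = 0.0342) on the log2 scale. At 8 weeks Tigar was 33.99 to 39.3 CPM in WT and 38.2 to 46.5 in KO (0.20 (SE 0.07, edgeR adjusted p = 0.07198)). Pfkfb2, the cardiac form of the bifunctional enzyme that makes fructose 2,6-bisphosphate, was the most abundant of the 4 Pfkfb genes, at 65.1, 58.3, 49.4, 45.1 and 39.7 CPM in WT-8, 36.1, 48.98, 47.6 and 37.9 in KO-8, 34.8, 43.5, 41.7, 35.4 and 41.02 in WT-16 and 57.2, 43.7, 36.5, 30.8 and 33.7 in KO-16. Its groups overlapped at both times (-0.27 (SE 0.13, edgeR adjusted p = 0.224) and 0.04 (SE 0.16, edgeR adjusted p = 0.884)).

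Pfkfb1, best known from liver and skeletal muscle, was 20.2, 7.16, 7.44, 10.01 and 10.9 CPM in WT-16, against 5.001, 1.26, 1.21, 2.000 and 8.44 in KO-16. KO replicates 1 to 4 lay below all WT libraries and replicate 5 within them (-1.72 (SE 0.51, edgeR adjusted p = 0.0723)). Fbp2, the muscle fructose bisphosphatase that runs the step backwards, was 18.99, 11.4, 18.1, 18.4 and 17.5 CPM in WT-16, against 15.3, 1.84, 1.09, 2.71 and 5.73 in KO-16 (-1.68 (SE 0.54, edgeR adjusted p = 0.08797)). KO replicates 2 to 5 were below all WT libraries, and replicate 1 was within the WT range. Neither passed at 16 weeks in the fit to these libraries, on 17 to 72 (Pfkfb1) and 18 to 220 (Fbp2) counts per KO library. Both were called lower in the fit to all 19 libraries (-1.78 (SE 0.43, edgeR adjusted p = 0.00854) and -1.71 (SE 0.44, edgeR adjusted p = 0.0122)), whose 16-week calls are less certain. Without replicate 1 of KO-16 both were called lower on the 16-week libraries too, by 1.97 and 2.75 on the log2 scale (edgeR adjusted p = 0.0311 and 6.47e-04). Without replicate 5 only Pfkfb1 of the pair was. These fits called 826 of 12142 and 762 of 12920 genes lower, beside 117 of 12325 with no library left out. Replicate 1 was the KO-16 library highest for Fbp2 and replicate 5 that highest for Pfkfb1, so leaving it out by itself lowers the KO mean of that gene. At 8 weeks their fold changes were -0.21 (SE 0.19, edgeR adjusted p = 0.558) and -0.25 (SE 0.14, edgeR adjusted p = 0.3102).

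The share of Pfkfb2 among the 4 Pfkfb genes was 66.2% ± 7.79 in WT-8 and 65.5% ± 7.23 in KO-8 (exact permutation p = 0.857). In the 16-week libraries it stood at 58.3% ± 10.4 in WT and 70.3% ± 8.38 in KO (n = 5 each, exact permutation p = 0.0714, adjusted p = 0.250), while the Pfkfb1 share was 28.5% ± 9.34 and 10.8% ± 8.83. The Pfkfb2 difference of 12.03 percentage points was 7.68 (exact permutation p = 0.143) without replicate 1 of WT-16, the library highest for Pfkfb1, and 7.304 (exact permutation p = 0.2302) with raw counts not divided by length. Pfkfb3 and Pfkfb4, the forms that respond to hypoxia in many cells, were 4.36 to 12.9 and 0.807 to 2.07 CPM in WT-16. Pfkfb3 had -0.28 (SE 0.10, edgeR adjusted p = 0.0871) at 8 weeks and 0.19 (SE 0.25, edgeR adjusted p = 0.6599) at 16 weeks. Pfkfb4 had -0.19 (SE 0.13, edgeR adjusted p = 0.424) at 8 weeks and too few counts for the 16-week test.

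**Figure D3:**
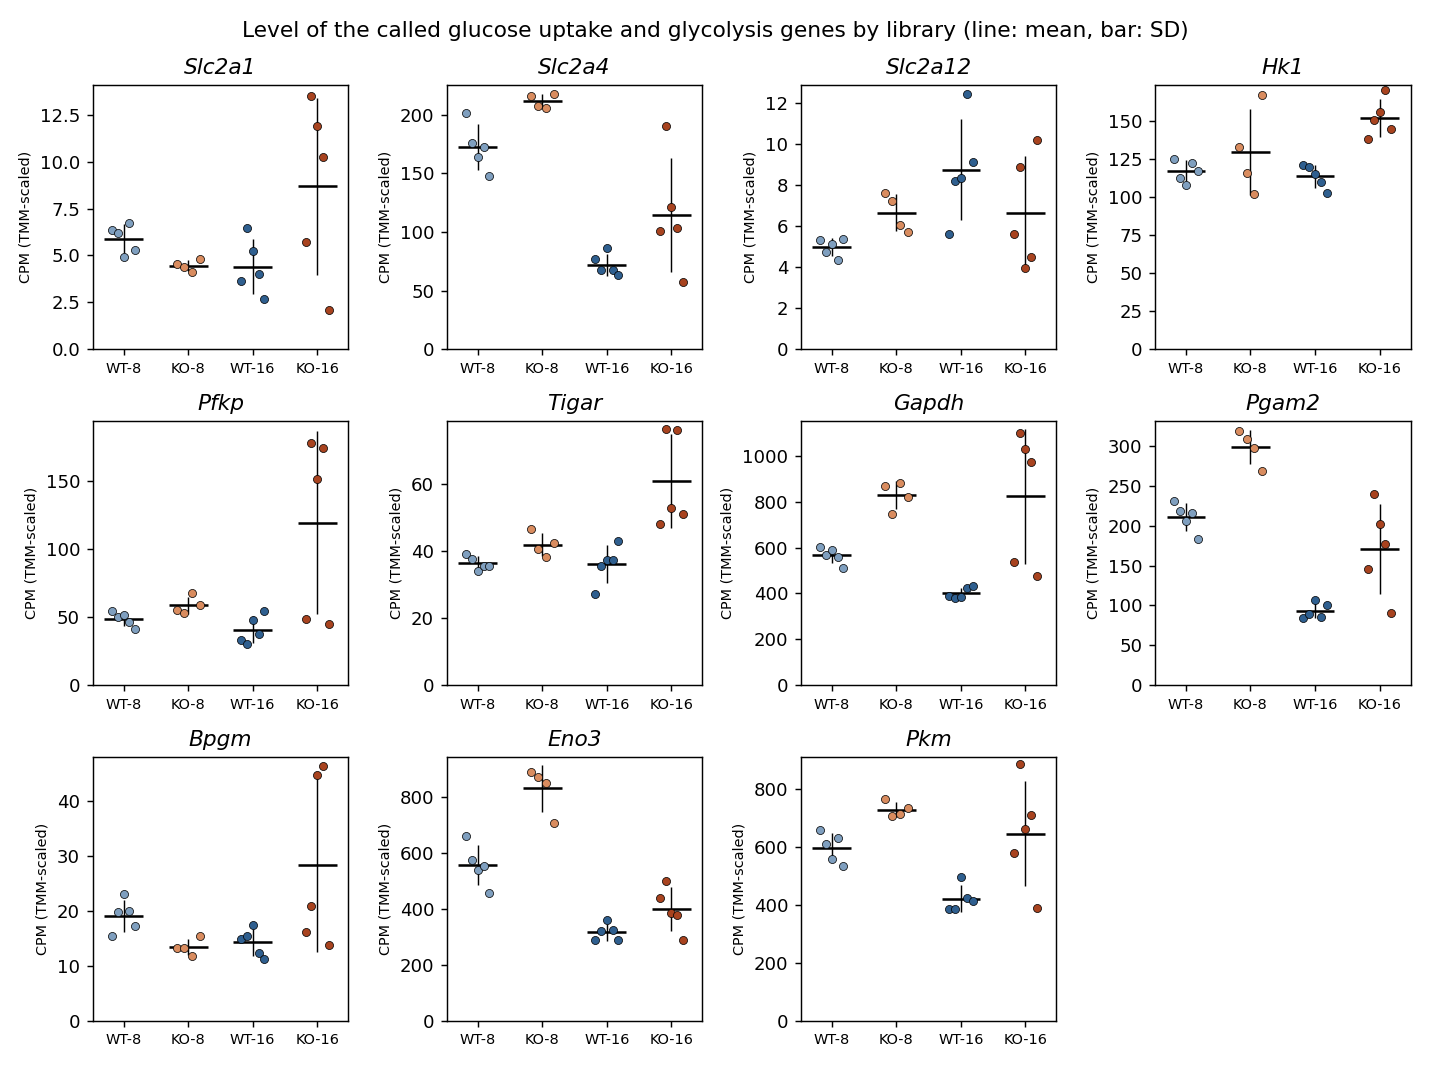
CPM of the 11 members called at 8 or 16 weeks is drawn by library (points) with the group mean (line) and SD (bar), each panel from 0. At 8 weeks the KO points of Gapdh, Pgam2 and Eno3 lie above every WT point, and at 16 weeks 2 of the 5 KO points (replicates 1 and 5) lie nearest the WT points in most panels.

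Aldolase and triose phosphate isomerase split the sugar and interconvert the triose phosphates. Aldoa was the most abundant member per kilobase in WT-8, at 1389, 1316, 1250.00, 1356 and 1217 CPM, against 1370.2, 1218, 1279 and 1259 in KO-8. The ranges overlapped (-0.03 (SE 0.06, edgeR adjusted p = 0.834)). At 16 weeks Aldoa was 715, 668, 707, 686 and 734 in WT and 832, 1296, 1067, 944 and 514 in KO (0.41 (SE 0.19, edgeR adjusted p = 0.202)). The WT libraries lay within a narrow band, with KO replicates 1 to 4 above it and replicate 5 below it. Aldoc, the brain form, never exceeded 8 counts in a library and was 0.00682% ± 0.00499 (SD, n = 5) of the 2 aldolases per kilobase in WT-8. The second ID named Aldoa, a locus upstream of the first on the same strand of chromosome 7 (126800790 to 126809108), had at most 9 counts in any library and was not tested.

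Tpi1 was 149, 148, 196, 158 and 161 CPM in WT-16, against 212, 399, 272, 309 and 126 in KO-16 (0.70 (SE 0.23, edgeR adjusted p = 0.09601)), with KO replicate 5 lowest and the other KO libraries above all WT libraries. At 8 weeks the values were 271 to 336 in WT and 305 to 372 in KO (0.16 (SE 0.07, edgeR adjusted p = 0.175)).

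Gapdh, the dehydrogenase that makes the NADH of glycolysis and is often used as a reference gene, rose at both times. At 8 weeks it was 601, 569.6, 589.6, 561 and 512 CPM in WT and 871, 745, 881 and 822 in KO (0.55 (SE 0.07, edgeR adjusted p = 2.09e-04)). Later, at 16 weeks, it was 391, 382, 386, 422 and 432 in WT and 537, 1099.5, 1032, 973 and 476 in KO (1.03 (SE 0.22, edgeR adjusted p = 0.0307)). All KO libraries exceeded all WT libraries of their time, and the KO-16 libraries fell at 476 and 537 (replicates 5 and 1) and at 973 to 1100 (replicates 4, 3 and 2). The 8-week call was kept whichever library was left out, with log2 fold changes of 0.52 to 0.60. Of its 51-base runs, 25.0% also occur in other annotated genes, 207 of them pseudogenes, and reads that could not be placed in 1 gene may be missing from its counts, so its level relative to other genes is uncertain.

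Pgk1, which makes the first ATP of the pathway, did not pass with the 16-week libraries alone. It was 15.3, 19.7, 20.5, 19.1 and 17.1 CPM in WT-16, against 21.8, 37.5, 29.9, 36.1 and 11.9 in KO-16 (0.58 (SE 0.24, edgeR adjusted p = 0.158)), and at 8 weeks 32.9 to 37.8 in WT and 32.4 to 37.04 in KO (0.00 (SE 0.06, edgeR adjusted p = 0.977)). Of its runs of 51 bases 53.8% are shared with other annotated genes, all 5 of them pseudogenes, so its level is likewise uncertain.

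Phosphoglycerate mutase is almost wholly the muscle form. Pgam2 held 99.1% of the 2 isoforms per kilobase in WT-8, and it rose at both times. At 8 weeks it was 231, 219, 206, 216 and 183 CPM in WT and 318, 309.6, 297 and 269 in KO, without overlap (0.50 (SE 0.07, edgeR adjusted p = 7.41e-04)), and the call was kept in all 9 fits that left out 1 library. At 16 weeks it was 84.7, 89.8, 106, 85.4 and 101 in WT and 146, 239.9, 202, 178 and 90.1 in KO (0.87 (SE 0.21, edgeR adjusted p = 0.0414)). KO replicate 5 lay within the WT range and the other KO libraries above it. No 51-base run of Pgam2 occurs in another annotated gene. Of those of Pgam1, 36.1% do, in 4 pseudogenes, so reads may be missing from its counts and the shares of the 2 isoforms are uncertain. Pgam1, the widely expressed form, was 3.71 to 5.92 CPM in WT-8, 4.22 to 6.08 in KO-8, 2.42 to 3.76 in WT-16, then 1.43 to 7.12 in KO-16 (0.20 (SE 0.15, edgeR adjusted p = 0.463) and 0.76 (SE 0.33, edgeR adjusted p = 0.178)). Its share went from 0.863% ± 0.146 to 0.7103% ± 0.162 at 8 weeks and from 1.34% ± 0.201 to 1.18% ± 0.308 at 16 weeks, within the spread of libraries (exact permutation p = 0.159 and 0.476).

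Bpgm, which makes 2,3-bisphosphoglycerate and is most abundant in red cells, fell at 8 weeks. It was 15.4, 19.8, 23.1, 19.9 and 17.3 CPM in WT-8 and 13.3, 13.3, 11.8 and 15.4 in KO-8, where the highest KO library and the lowest WT library were level (-0.50 (SE 0.11, edgeR adjusted p = 0.0107)). At 16 weeks it was 14.9, 15.4, 17.4, 12.4 and 11.3 in WT and 16.3, 20.9, 44.7, 46.4 and 13.8 in KO, where replicates 3 and 4 stood apart from the other 8 libraries (0.98 (SE 0.32, edgeR adjusted p = 0.0882)). A sum was taken over 6 erythroid markers (2 beta globins, 2 alpha globins, Alas2 and Slc4a1, all detected). At 8 weeks it was lower in KO too, with medians of 696 CPM in WT-8 and 392 in KO-8, but overlapped. The sum was 451 to 974 CPM in WT-8, 263 to 579 in KO-8 and 51.1 to 132 in WT-16. In KO-16 it was 106, 218, 1107, 543 and 45.5 CPM in replicates 1 to 5. Replicates 3 and 4 were thus highest for both the sum and Bpgm, though in opposite order. In WT-8 the sum was highest in replicate 4 (974) and Bpgm in replicate 3, so the 2 did not follow each other in every group. At 8 weeks 3 of the 6 markers were called lower in KO, beside 4.81% of all genes, and 0 higher. With the erythroid sum as a covariate the 8-week fold change of Bpgm was -0.29 (adjusted p = 0.277), and of the 8 calls at that time Gapdh and Pgam2 were kept (0.53 and 0.48). Eno3, Pkm and Slc2a4 had fold changes of 0.52, 0.31 and 0.33, near those without the covariate, and missed the threshold (edgeR adjusted p = 0.0827, 0.136 and 0.142). Slc2a12 and Slc2a1 had smaller ones, 0.21 and -0.30 (edgeR adjusted p = 0.443 and 0.322). Of the 5 calls at 16 weeks none was kept, and Gapdh had 0.57 (adjusted p = 0.486). The part of red cells in these results was not tested beyond this covariate.

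**Figure D4:**
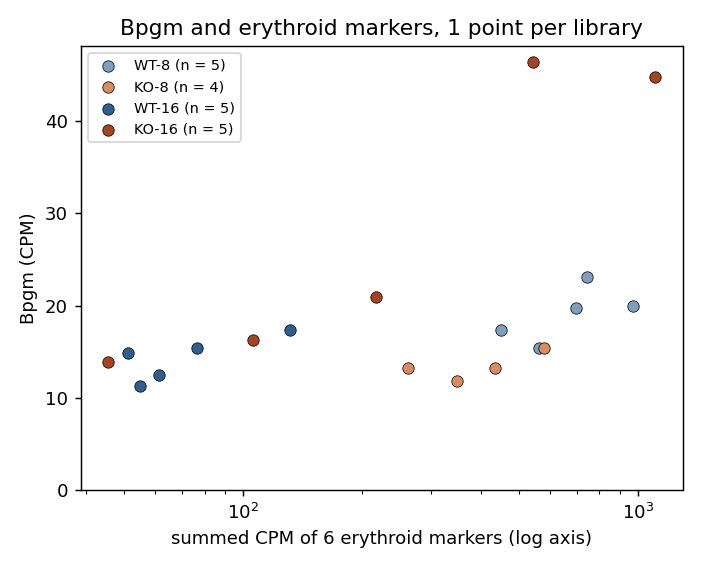
Bpgm (CPM, from 0) is plotted against the summed CPM of 6 erythroid markers (log axis), 1 point per library, coloured by group. Replicates 3 and 4 of KO-16, at 44.7 and 46.4 CPM of Bpgm, stand above the other 8 libraries of 16 weeks, which lie between 11.3 and 20.9.

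Enolase was carried by its muscle form, and Eno3 had the largest fold change of the 8-week rises. It was 659, 574, 537, 554 and 458 CPM in WT-8 and 888, 873, 851 and 708 in KO-8, without overlap (0.58 (SE 0.09, edgeR adjusted p = 0.00174)), and the call was kept in all 9 fits that left out 1 library. At 16 weeks it was 288, 321, 362, 324 and 287 in WT and 441, 500.1, 385, 379 and 288 in KO (0.33 (SE 0.14, edgeR adjusted p = 0.169)), with KO replicates 1 to 4 above all WT libraries. The share of Eno3 among the 3 enolases was 98.3% ± 0.120 in WT-8 and 98.7% ± 0.213 in KO-8 (exact permutation p = 0.0476, adjusted p = 0.222), and 98.8% ± 0.354 and 98.3% ± 0.653 at 16 weeks (exact permutation p = 0.230). Eno1, the widely expressed form, was 15.6, 14.1, 11.9, 10.01 and 7.98 CPM in WT-16, against 14.4, 33.98, 25.9, 24.7 and 7.16 in KO-16 (0.86 (SE 0.33, edgeR adjusted p = 0.129)), and 25.8 to 33.8 and 28.5 to 34.1 at 8 weeks (0.17 (SE 0.08, edgeR adjusted p = 0.238)). Eno2, the neuronal form, was at most 0.798 CPM in any library (0.35 (SE 0.25, edgeR adjusted p = 0.4395) at 8 weeks).

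Pkm, the pyruvate kinase gene of muscle, closes the pathway. It was 659.8, 611, 557, 630.2 and 535 CPM in WT-8 and 765, 706, 714 and 734 in KO-8, without overlap (0.29 (SE 0.07, edgeR adjusted p = 0.0162)), a call that every fit leaving out 1 library kept. At 16 weeks it was 387, 386, 498, 425 and 413 in WT and 579, 887, 663, 709 and 391 in KO, with KO replicate 5 in the WT range and the others above it (0.61 (SE 0.18, edgeR adjusted p = 0.0736)). The counts are per gene, so the M1 and M2 splice forms were not told apart. Of the 51-base runs of Pkm and Eno1, 25.4% and 25.9% occur in other annotated genes.

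Txnip, an arrestin-like protein that binds thioredoxin, restrains glucose uptake and is induced by glucose, varied widely in WT. It was 289, 401, 486, 506 and 721 CPM in WT-8, 641, 516, 592 and 532 in KO-8, 407, 175, 478, 418 and 565 in WT-16 and 419.9, 414, 381, 313 and 370.2 in KO-16. The KO values lay within the WT range at both times (0.25 (SE 0.18, edgeR adjusted p = 0.452) and -0.11 (SE 0.23, edgeR adjusted p = 0.799)).

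**Figure D5:**
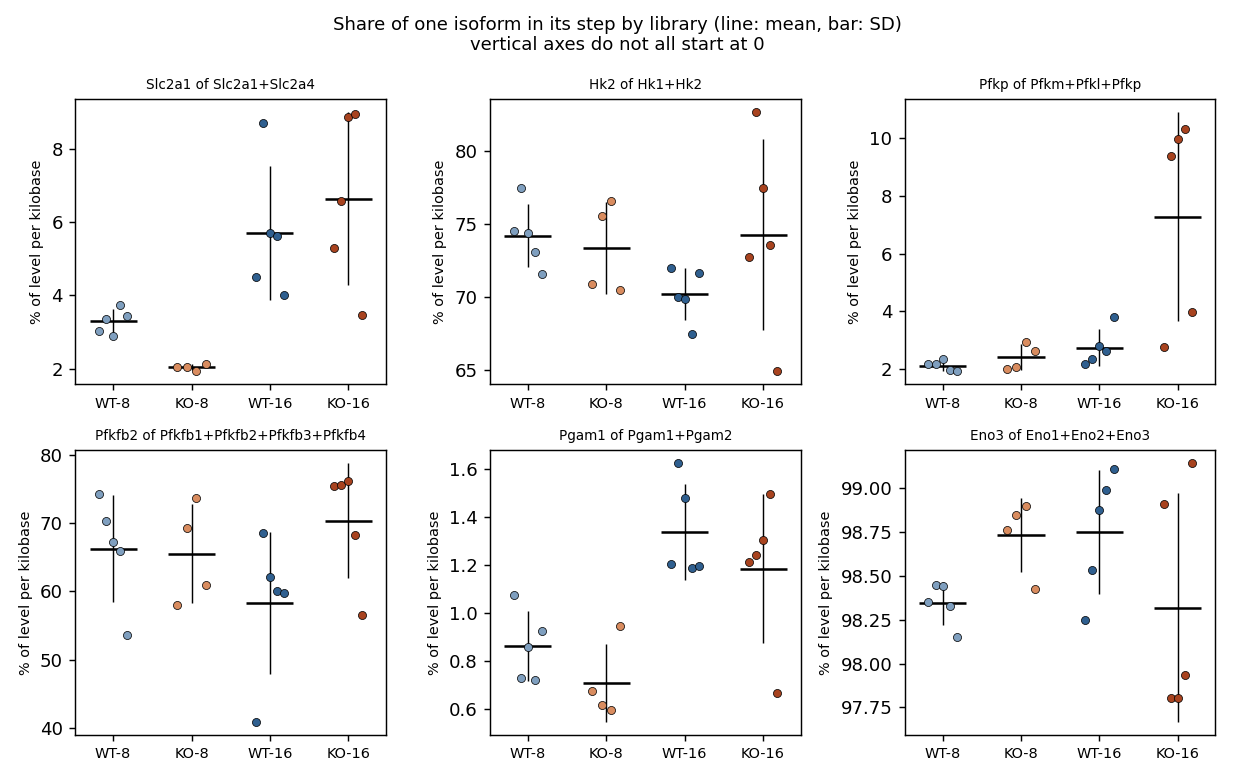
The share of 1 isoform in its step (percent of the summed CPM per kilobase) is drawn by library with the mean (line) and SD (bar), on axes that do not all start at 0. The Slc2a1 share at 8 weeks is the only panel and time in which KO and WT points do not overlap, and for the Pfkp share 3 of 5 KO-16 points lie above 9%.

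The KO-16 libraries were also ranked for the 15 members called higher at 16 weeks in the fit to all 19 libraries, a choice that by itself favours KO libraries above WT libraries. Replicates 1 and 5 were the lowest pair of the 5 KO libraries in 15 of the 15, beside 63.6% of all 1779 genes called higher in that fit, and replicate 5 was the lowest in 13, beside 47.4%. Over the 16101 genes tested in it the numbers were 3218 and 5034 (31.3% for the second). Replicate 5 lay under the highest WT-16 library in 12 of the 15 members and replicate 1 in 4. The summed level of 6 cardiomyocyte markers (Myh6, Tnnt2, Actc1, Ryr2, Tnni3 and Pln) was highest in the same pair, with 42238, 22672, 25038, 26760 and 36614 CPM in KO-16 replicates 1 to 5, against 40493 to 46171 in WT-16. The sum of 6 fibroblast markers was 439, 707, 1036, 618 and 605 CPM, against 324 to 432 in WT-16, and did not overlap. Endothelial, smooth muscle, macrophage and skeletal muscle marker sums overlapped between the genotypes at 16 weeks. Called higher at 16 weeks were 3 of 6 fibroblast, 1 of 6 endothelial and 1 of 6 smooth muscle markers, beside 1.87% of all genes tested. No marker of these types, or of cardiomyocytes, was called lower in the fit to the 16-week libraries, beside 0.949% of all genes. Of the 6 cardiomyocyte markers 5 had a negative fold change in it, with a median of -0.50 on the log2 scale. Only 2 of 6 skeletal muscle markers and 0 of 6 adipocyte markers had enough counts to be tested at that time. Adipocyte markers summed to at most 41.6 CPM in WT-16 (median 0.665) and 9.07 in KO-16 (median 0.471). At 8 weeks the highest sums were 1.14 in WT and 1.28 in KO. All 6 cardiomyocyte markers were detected in every group, which is what the heart label requires. In the fit to all 19 libraries 4 of these 6 were called lower at 16 weeks, beside 8.29% of all genes. Called higher in it were 4 of 6 fibroblast, 5 endothelial, 3 smooth muscle, 2 macrophage and 5 erythroid markers, beside 11% of all genes. The part of cell makeup in the 16-week results on the members was not tested either. In KO-16 replicates 1 to 5 the 18S share was 12.7, 1.71, 5.66, 30.0 and 26.1%, and the totals were 15.5, 26.9, 14.1, 11.1 and 9.54 M. The part of 18S share or depth in the order of the KO-16 libraries was not tested.

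The time points gave no call when their effects were compared directly. For the difference of the KO effect, 16 minus 8 weeks, 0 of 16101 genes passed in edgeR (0.0%, with 2038 genes at an unadjusted p under 0.05) and 0 with limma-voom (2469 under 0.05). Among the members the smallest adjusted p was that of Bpgm, 1.48 (SE 0.37, edgeR adjusted p = 0.257), followed by Slc2a1, 1.39 (SE 0.42, edgeR adjusted p = 0.283). Bpgm and Slc2a1 were the members called lower at 8 weeks, and both had a positive fold change at 16 weeks. Without replicate 1 of KO-16 the difference passed for 560 of 16115 genes, among them Bpgm, Slc2a1 and Pfkp (higher) and Fbp2 (lower). Without replicate 5 of KO-16 it passed for 213 of 16033 genes, 7 of them members with a higher effect and 1, Pfkfb1, with a lower effect. No gene passed when any other library was left out. Replicates 1 and 5 were the KO-16 libraries that lay lowest in the members ranked above, so leaving either out by itself favours a larger 16-week effect. Time and sequencing run cannot be told apart here, so the levels of 8-week and 16-week libraries were not compared.

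Of 20 other glycolysis and glucose transporter genes, 9 were tested at 8 weeks and 2 rose, beside the 3.57% of all genes called higher. Galm, which interconverts the anomers of hexoses, was among them, with means of 13.2 CPM in WT-8 and 16.5 in KO-8 (0.32 (SE 0.08, edgeR adjusted p = 0.0178)). Every KO library of Galm was above every WT library. At 16 weeks 5 of the 20 were tested and none passed.

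Of 25 regulators of glucose use, 3 fell and 0 rose at 8 weeks, 12% beside the 4.81% of all genes called lower. They were Tbc1d4 (AS160, the Akt substrate that holds GLUT4 vesicles inside the cell), with 124 CPM in WT-8 and 92.8 in KO-8 (-0.42 (SE 0.09, edgeR adjusted p = 0.0118)), Egln1 (a prolyl hydroxylase that marks HIF1A for degradation), with 183 and 143 (-0.35 (SE 0.06, edgeR adjusted p = 0.00173)), and Akt2 (the kinase that carries the insulin signal to AS160), with 65.2 and 54.7 (-0.25 (SE 0.06, edgeR adjusted p = 0.0176)). In all 3 every KO library was below every WT library. At 16 weeks 1 of the 25 fell, beside 0.949% of all genes. It was Tbc1d4, with 116 CPM in WT-16, against 64.5 in KO-16 and no overlap (-0.84 (SE 0.17, edgeR adjusted p = 0.02701)). Arrdc4, a relative of Txnip that is also induced by glucose, had 7.40 and 14.3 (0.94 (SE 0.24, edgeR adjusted p = 0.0512)), and Mlxip, a glucose-sensing transcription factor, 28.98 and 18.97 (-0.60 (SE 0.17, edgeR adjusted p = 0.0662)). Hif1a, the hypoxia factor, had -0.09 (SE 0.05, edgeR adjusted p = 0.3104) at 8 weeks and 0.16 (SE 0.13, edgeR adjusted p = 0.4603) at 16 weeks.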

How the data were processed

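The authors deposited read pair counts per gene, made per the file headers with featureCounts 1.6.3, counting pairs on the reverse strand and assigning each to the gene of largest overlap (GRCm38, Ensembl 96), with no option set to count multi-mapping reads. Further tools in the submitters' processing notes are STAR, RSEM, SAMtools, FastQC and cutadapt 1.16. Ribosomal RNA was depleted before library preparation, per the labels' protocols. The 2 files of each 16-week sample were summed. All 55536 gene IDs matched GENCODE M21, which gave the symbols, and RefSeq promoters (GRCm38.p6) matched 30 of 32 symbols.

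Counts were tested with edgeR 4.0.16 (quasi-likelihood, filterByExpr, TMM factors from all 19 libraries) in R 4.3.3, within each time point, with Benjamini-Hochberg adjustment over all genes tested and a threshold of 0.05. SE was taken from the fold change and the F statistic. Isoform shares used CPM divided by the exon length that the counting used, and exact permutation tests (scipy 1.17.1). For some genes that length exceeds the length of any 1 transcript, by an amount that differs between genes. Levels per kilobase of different genes are therefore uncertain relative to each other. The members and lists were chosen with earlier results of these data known, so no list was tested as a set. Alternatives were all 19 libraries in 1 fit, RLE or within-time TMM factors, no filter, 1 CPM in 4 libraries, DESeq2 1.42.0, limma 3.58.1 voom with quality weights, mitochondrial and rRNA genes left out, the 18S share as a covariate, 1 file per 16-week sample, male libraries left out, and each library left out. The erythroid covariate and the 16-week libraries over 20% 18S were chosen after seeing the data. The scripts were tested on simulated data. Values per library were given for members called in any fit and for the leading isoform of each step. From the other lists, group means were given for called genes and up to 4 with the smallest p. Hif1a is outside that rule and was named after its values were seen. Some genes of these lists are not reported here. Raw reads were not analysed here.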

Additional observations from a re-analysis of the deposited data

Results flagged for a closer look

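For each tested member, Mpc1 and each isoform share, the libraries of each group were examined for an outlying library. In 6 of 152 such cases the highest or lowest library lay far from the rest of its own group by Dixon's criterion. Chance alone gives this in about 1 of 20 cases, so the 6 are no more than that rate gives. Pfkfb1 was 20.2 CPM in replicate 1 of WT-16, with the other libraries at 7.16 to 10.9, and 13.95 CPM in replicate 5 of WT-8, with the others at 7.53 to 8.71. Fbp2 was 11.4 CPM in replicate 2 of WT-16, below the others at 17.5 to 18.99, and 20.4 CPM in replicate 5 of WT-8, above the others at 14.3 to 14.9. Replicate 5 of WT-8 was thus the high library for both of these genes. Tpi1 was 196 CPM in replicate 3 of WT-16, with the others at 148 to 161. Pgam1 was 5.92 CPM in replicate 1 of WT-8, with the others at 3.71 to 4.22.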

How the results depend on the processing

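No value that had been called changed direction in any alternative. At 8 weeks, with 1276 genes called and 6 members higher and 2 lower, the fit to all 19 libraries gave 33 genes and 0 and 0 members, the erythroid covariate 248 genes and 2 and 0 members, and limma-voom 1 member lower. Leaving out each library in turn gave 866 to 1231 genes, 4 to 7 members higher and 1 to 2 lower. At 16 weeks, with 348 genes, 5 members higher and 0 lower, the fit to all libraries gave 3114 genes and 15 and 2 members, no filter 1050 genes and 9 and 2, DESeq2 1163 genes and 10 members higher, and limma-voom 2374 genes and 14 and 2. The erythroid covariate gave 12 genes, the 18S covariate 29 and leaving out the male libraries 15, each with 0 members, and the libraries over 20% 18S 0 members higher and 1 lower (Fbp2). Leaving out each library gave 30 to 1802 genes, 0 to 18 members higher and 0 to 2 lower. For the difference between the times, the same gave 0 to 560 genes, 0 to 7 members higher and 0 to 1 lower. The cause of these differences was not tested. No isoform share passed after adjustment in any alternative (lowest adjusted p = 0.111). Some differences between KO and WT moved by more than the SD between libraries of at least 1 of the 2 groups. With raw counts not divided by length those of Pfkp were 0.976 and 12.07 percentage points at 8 and 16 weeks (0.293 and 4.53 per length), those of Eno3 1.14 and -1.24 (0.391 and -0.432) and that of Pgam1 at 8 weeks -0.352 (-0.152). Raw shares are on another scale, with another spread, and the exact permutation p of each of these differences was unchanged. At 16 weeks the Pgam1 difference was -0.545 with the earlier and 0.0887 with the later file (-0.153 with both), and the Hk2 difference was 1.99 without replicate 2 and 6.42 without replicate 5 of KO-16 (4.08). No paired analysis was possible because the labels give library numbers that are not shared between groups. Members under a few counts per library (Hkdc1, Aldoc and the second Aldoa ID) could not be tested at this depth.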
